A study of Mus musculus with 15 samples.

Results

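The 6 genes Pbp2, Pde6h, Klrd1, Ybx3, Clec12b and Apobec1 lie on distal mouse chromosome 6 around Cdkn1b, the gene that encodes the cyclin-dependent kinase inhibitor p27. They were chosen from these same arrays by their level in fibroblasts lacking p27 against fibroblasts carrying it, so their p27 differences are given as a description with no test. All probes with 1 of these gene names, current or older, were taken: 9 of the 41174 probes on the array and 6 of its 27672 gene names. Ybx3 is listed under its older name Csda and Clec12b under 4933425B16Rik. Of the 9 probes, 8 passed the filter on dim probes that left 27700 probes for testing, and a dim probe of Ybx3 did not. Pde6h, Ybx3 and Apobec1 have a brighter and a dimmer probe each, which share a target gene and are not replicates of each other. Measured from the start of Cdkn1b to the start of each gene, with positive values toward the distal end of the chromosome, Pbp2 lies at 0.389 Mb, Pde6h at 2.03 Mb, Ybx3 at -3.56 Mb, Klrd1 at -5.33 Mb, Clec12b at -5.54 Mb and Apobec1 at -12.3 Mb (RefSeq, GRCm38.p6).

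The study measured RNA of mouse embryonic fibroblasts in a design of 4 genotypes that crosses loss of p27 with loss of stathmin, a protein that destabilises microtubules. The groups were wild type with 4 arrays, p27 knock-out with 4, stathmin knock-out with 4 and double knock-out, lacking both, with 3. All cells came from embryos at 13.5 d p.c. with the strain label C57B6, were at passage 3, and were harvested at high confluence after 24 h without serum. Every array set 1 sample, labelled with Cy5, against RNA of pooled mouse embryonic fibroblasts labelled with Cy3, with no dye swap, so each value below is the log2 ratio of sample over reference and a dye effect is shared by all arrays. The labels call the arrays of a group biological replicates and do not say how the alleles were made.

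The 6 genes serve unrelated roles. Pbp2 encodes a relative of the phosphatidylethanolamine-binding protein Pebp1 known from the testis, Pde6h the inhibitory subunit of the cone photoreceptor phosphodiesterase, and Ybx3 a cold-shock-domain protein that binds DNA and RNA. Klrd1 (CD94) and Clec12b are lectin-like receptors of the natural killer gene complex, a cluster of immune receptor genes on this stretch of chromosome 6, and Apobec1 encodes the cytidine deaminase that edits apolipoprotein B mRNA.

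The letters directly before the starts of the 3 members that lay below wild type on every p27 knock-out array are shown to set these promoters side by side. Each is the 250 bases before the RefSeq start (GRCm38.p6), on the strand of the gene, 5′ to 3′, with capitals marking matches to the TATA box letters TATAAA or the GC box letters GGGCGG on either strand. RefSeq's table held such a window for 5 of the 6 members. Pbp2 is at chr6:135310385-135310634 on the minus strand, Pde6h at chr6:136954273-136954522 on the plus strand and Ybx3 at chr6:131388451-131388700 on the minus strand.
Pbp2: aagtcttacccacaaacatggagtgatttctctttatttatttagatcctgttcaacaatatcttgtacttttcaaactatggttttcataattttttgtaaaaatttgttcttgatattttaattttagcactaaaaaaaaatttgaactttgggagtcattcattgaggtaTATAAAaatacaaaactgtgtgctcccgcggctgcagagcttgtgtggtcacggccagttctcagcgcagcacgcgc
Pde6h: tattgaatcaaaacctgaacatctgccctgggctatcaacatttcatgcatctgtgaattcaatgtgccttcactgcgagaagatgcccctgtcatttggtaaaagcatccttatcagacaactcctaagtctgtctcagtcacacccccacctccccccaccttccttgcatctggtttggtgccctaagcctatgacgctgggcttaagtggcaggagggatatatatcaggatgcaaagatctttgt
Ybx3: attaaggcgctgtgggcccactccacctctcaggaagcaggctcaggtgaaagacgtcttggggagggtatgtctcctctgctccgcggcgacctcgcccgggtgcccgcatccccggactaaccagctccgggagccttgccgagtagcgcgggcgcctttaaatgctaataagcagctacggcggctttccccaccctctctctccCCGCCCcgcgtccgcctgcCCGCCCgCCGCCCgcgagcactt
The 3 windows differ in composition. The window of Pbp2 has 35.2% G and C and holds TATAAA 77 bases before the start. That of Ybx3 has 67.2% G and C and holds the reverse complement of GGGCGG 42, 23 and 16 bases before the start. That of Pde6h has 47.2% G and C and holds neither, nor CCAAT. Over 32851 mouse promoters of the same length, 12.4% hold TATAAA, 32.7% GGGCGG and 33.8% CCAAT on either strand.

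Of the probes on each array, 59.3% to 78.9% were well above background in the sample channel. The arrays of wild type 3 and wild type 4 were closer to each other than any other pair (r = 0.815 over probes, next pair 0.628). The dimmer Stmn1 probe was low on all 7 arrays that lack stathmin (difference -3.62). The brighter Stmn1 probe had a stathmin difference of -0.42 (SE 0.21) and overlapped between stathmin knock-out and wild type. For Cdkn1b, the brightest probe overlapped between genotypes, with a p27 difference of -0.62, and where it lies against the deleted part was not tested. A dim Cdkn1b probe below the filter, well above background on 2 of 15 arrays, had a p27 difference of 0.11. It overlapped, from -0.33 to 0.36 on the p27-lacking arrays and from -0.28 to 0.01 on the p27-carrying ones. Another dim Cdkn1b probe, near background and below the filter, was well above background on 3 of 15 arrays. It ran from -0.20 to -0.08 on the 7 p27-lacking arrays and from 0.07 to 0.53 on 7 of the 8 p27-carrying ones. The array labelled stathmin knock-out 4 had -0.13 for the latter probe, within the range of the p27-lacking arrays. Several results that use that array are therefore given with and without it. Fibroblast markers were measured for 12 of 12 genes. The Y-linked gene Ddx3y, by both its probes, ran from -7.48 to -4.45 on p27 knock-out 2, stathmin knock-out 1 and 2 and double knock-out 1. On the other arrays, all wild type arrays among them, it ran from -0.27 to 1.60. Xist ran from 0.63 to 1.98 on the former arrays, was 0.20 on wild type 1 and ran from -2.58 to -1.76 on the rest. By these transcripts the sex of the cultures was unevenly spread over genotypes, and its part in the differences was not tested.

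Pbp2 had the largest difference between p27-lacking and p27-carrying fibroblasts of all 27700 tested probes. The wild type arrays read 0.67, 1.00, 1.69 and 1.50, and the p27 knock-out arrays -2.63, -3.67, -1.98 and -2.15. The double knock-out arrays read -2.58, -1.95 and -0.80. Pbp2 was thus below the reference on all 7 arrays that lack p27 and above it on all wild type arrays. The stathmin knock-out arrays spread over the whole span, with 0.24, -0.99, 1.38 and, on the array labelled stathmin knock-out 4, -2.39. The last of these lies within the p27 knock-out range, and -0.99 lies below the highest double knock-out array, so the 8 p27-carrying and 7 p27-lacking arrays overlapped. Fewer cells of a type and less RNA per cell cannot be told apart in such bulk samples.

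Wild type averaged 1.22 ± 0.46 (SD, n = 4) for Pbp2 and p27 knock-out -2.61 ± 0.76 (n = 4). Without stathmin, the mean was -0.44 ± 1.62 (n = 4) where p27 was present and -1.78 ± 0.90 (n = 3) where it was absent. The p27 knock-out mean was 14.1-fold below wild type (log2 difference -3.82, SE 0.67), also the largest of all tested probes. Among stathmin-lacking fibroblasts, the double knock-out mean was 2.53-fold below stathmin knock-out (log2 difference -1.34, SE 0.72). Without the array labelled stathmin knock-out 4 that difference was -1.99, and without stathmin knock-out 3 it was -0.73. The p27 difference over all 4 genotypes was -2.58 (SE 0.49), and -2.91 without the array labelled stathmin knock-out 4. Even without that array the p27-lacking and p27-carrying arrays overlapped.

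The difference in Pbp2 was in the sample channel. Sample signals before background correction were 2211, 5716, 6692 and 7295 in wild type, 331, 213, 752 and 659 in p27 knock-out, and 401, 673 and 1482 in double knock-out. The stathmin knock-out arrays had 3277, 1379, 7104 and 527. The reference signal, the same pooled RNA on each array, stayed between 1786 and 2148. After normalization the p27 difference was -2.61 (SE 0.50) in the sample channel and -0.03 (SE 0.05) in the reference channel. The plot of both channels shows the same for Pde6h and Apobec1: the sample channel differed by -0.41 and 0.51 and the reference channel by 0.03 and 0.00.

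**Figure D1:**
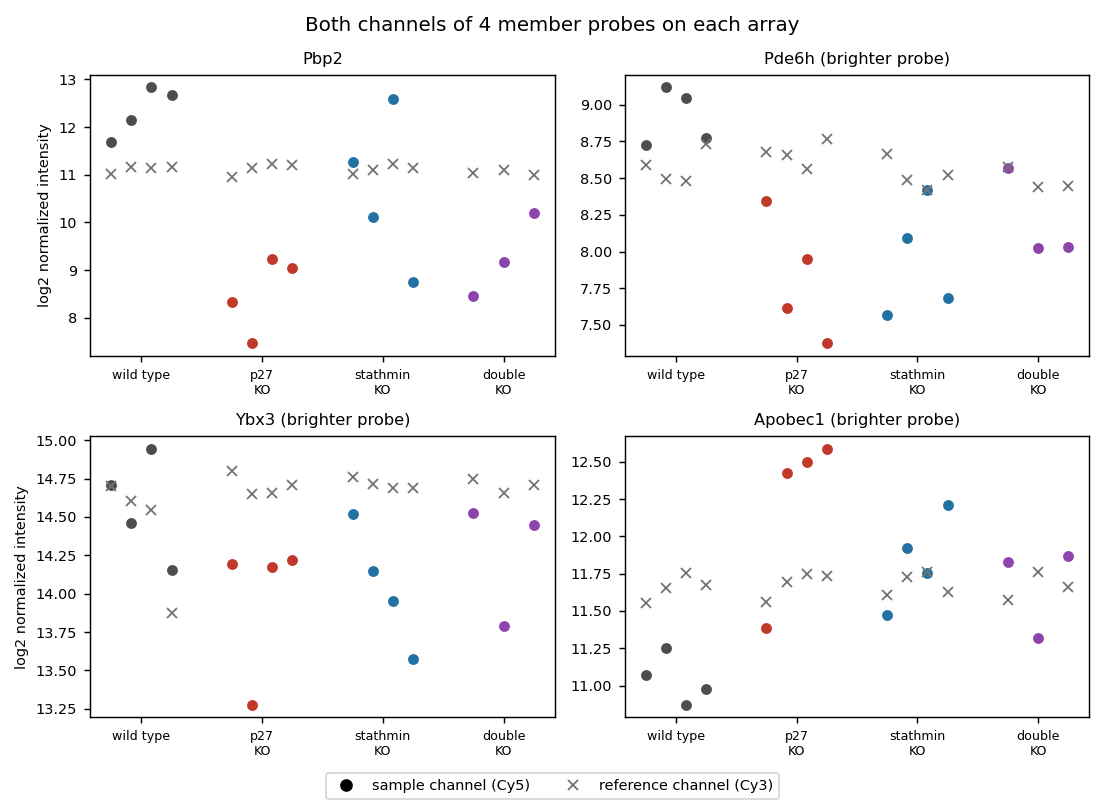
Log2 normalized intensity (y axis) of Pbp2 and of the brighter probes of Pde6h, Ybx3 and Apobec1 in the sample channel (dots, coloured by genotype) and the reference channel (crosses) of each of the 15 arrays, grouped by genotype on the x axis. The Pbp2 reference stays near 11 on every array while the sample channel runs from 7.47 to 12.83, and the Ybx3 reference of wild type 4 is low at 13.87.

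On all 4 slides Pbp2 was lower in p27 knock-out than in wild type. The differences were -3.30, -4.68, -3.66 and -3.65 on slides 1 to 4. Between double and stathmin knock-out they were -2.82 and -3.33 on slides 1 and 3, and 1.59 on slide 4, which holds the array labelled stathmin knock-out 4. Slide 2 carried no double knock-out. A genotype always took the same place on its slide, so an effect of that place cannot be told apart from genotype.

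None of the 9 probes separated the 7 p27-lacking from the 8 p27-carrying arrays. Over all tested probes, 0.00747% did so with lower values in the p27-lacking arrays and 0% with higher. Among stathmin-carrying arrays, a comparison which also served to choose the members, Pbp2 and the brighter probes of Pde6h and Ybx3 were below wild type on all 4 p27 knock-out arrays, as were 1.31% of all tested probes. The brighter Apobec1 probe was above wild type on all 4, as were 0.914%. Between double and stathmin knock-out only Clec12b did not overlap, with higher values (2.23% of all tested probes were higher and 2.64% lower). The arrays of double knock-out and wild type also served to choose the members. Between them, Pbp2 and the brighter Pde6h and Ybx3 probes were below in double knock-out (3.4% of all tested probes) and Clec12b above (2.9%). Clec12b was also above p27 knock-out in the double knock-out (1.56%). Its probe passed the filter through the double knock-out alone. The filter thus favours higher values there, and the shares lend these Clec12b separations no support. Beside Pbp2, the p27 differences were small: -0.44 and -0.06 for Pde6h, -0.33 for the brighter Ybx3 probe, and 0.50 and 0.30 for Apobec1. Klrd1 and Clec12b, which were not above background in whole groups, have bounds only.

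**Figure D2:**
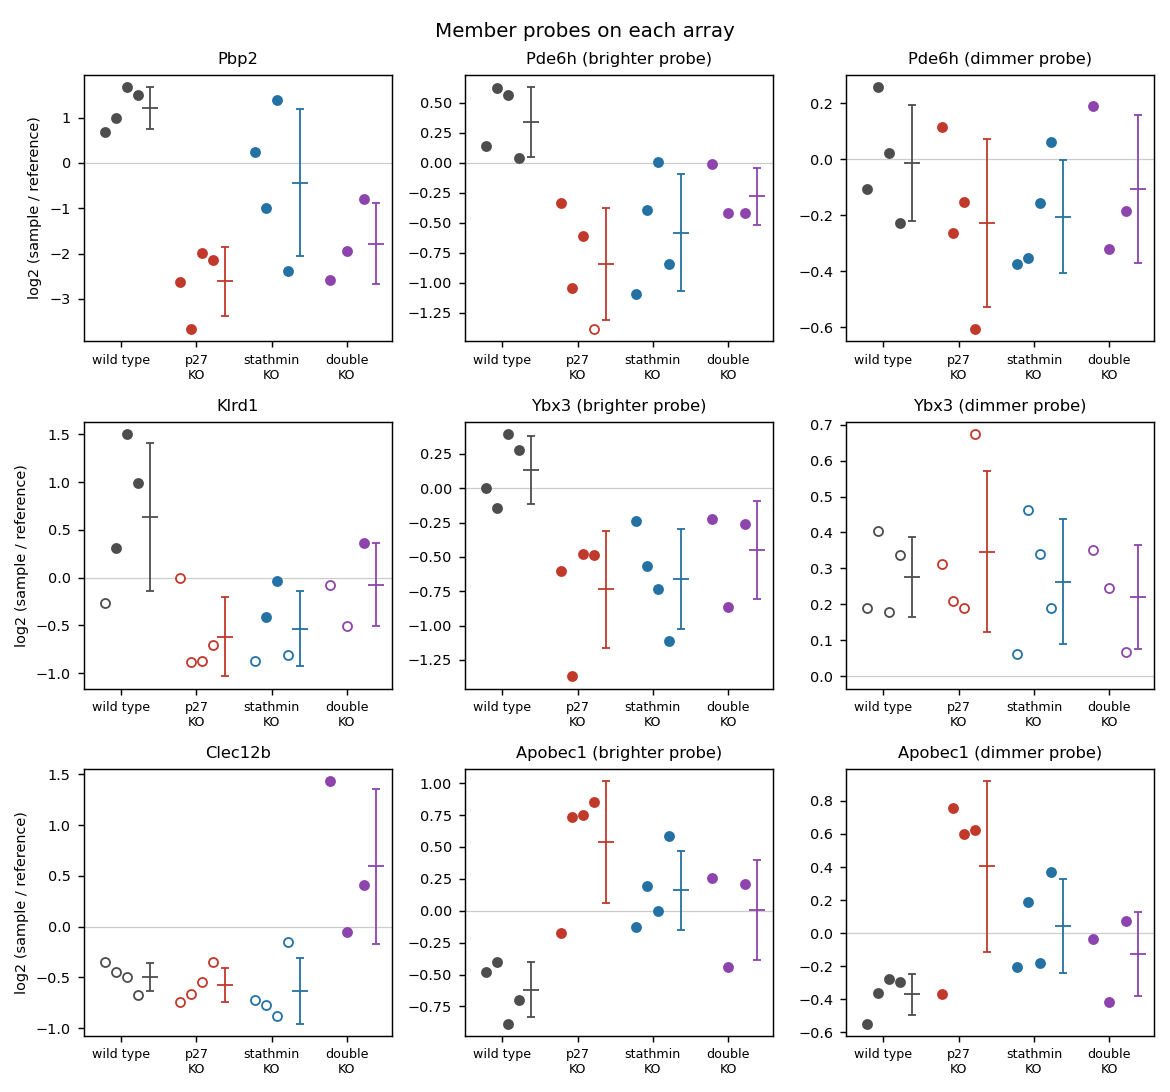
Log2 ratio of sample over reference (y axis) of the 9 member probes on each array, grouped by genotype (x axis), with the group mean ± SD beside the dots. Filled dots were well above background in the sample channel and open dots were not. Pbp2 is below 0 on all p27 knock-out and double knock-out arrays and on stathmin knock-out 2 and 4, and Clec12b has filled dots in the double knock-out alone.

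Pde6h, the cone phosphodiesterase inhibitory subunit, was higher in wild type than in any knock-out array by its brighter probe. Wild type read 0.14, 0.62, 0.56 and 0.04, and p27 knock-out -0.34, -1.04, -0.61 and -1.39. Stathmin knock-out read -1.10, -0.40, 0.00 and -0.84, and double knock-out -0.01, -0.42 and -0.42. The lowest wild type array, at 0.04, thus lay just above the highest knock-out array, at 0.00, and the 3 knock-out genotypes overlapped one another. Of all tested probes, 0.0822% were higher in wild type than on all 11 knock-out arrays, and 0.0523% were lower, with no member among the latter. The arrays of this comparison also served to choose the members, so the separation is not independent of the choice. That separation was lost when the arrays were centred on their medians without loess, and with the scanner software's own ratio.

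For the brighter Pde6h probe, wild type averaged 0.34 ± 0.29 (SD, n = 4), p27 knock-out -0.85 ± 0.47 (n = 4), stathmin knock-out -0.58 ± 0.49 (n = 4) and double knock-out -0.28 ± 0.24 (n = 3). The p27 knock-out mean was 2.28-fold below wild type (log2 difference -1.19, SE 0.27). The double knock-out mean lay above stathmin knock-out by 0.30, and by 0.22 without the array labelled stathmin knock-out 4. Within slides 1 to 4 the p27 knock-out minus wild type difference was -0.48, -1.67, -1.17 and -1.43.

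The dimmer Pde6h probe had the same order of group means as the brighter one, with smaller differences between genotypes. It ran from -0.23 to 0.26 in wild type, -0.61 to 0.12 in p27 knock-out, -0.37 to 0.06 in stathmin knock-out and -0.32 to 0.19 in double knock-out. All 4 genotypes overlapped, and its p27 difference of -0.06 (SE 0.13) ranked 18814 among the 27700 tested probes, against 1563 for the brighter probe. Over the 15 arrays the 2 probes had r = 0.671. Of 12 photoreceptor probes, 3 passed the filter.

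Ybx3, the cold-shock-domain protein, had the same order of group means as Pde6h. The brighter probe read 0.01, -0.14, 0.40 and 0.28 in wild type and -0.60, -1.37, -0.48 and -0.49 in p27 knock-out. It read -0.24, -0.56, -0.74 and -1.11 in stathmin knock-out and -0.22, -0.86 and -0.26 in double knock-out. All 4 wild type arrays lay above all 11 knock-out arrays, a comparison that is not independent of the choice of members. The lowest wild type array was at -0.14 against -0.22, and the knock-out genotypes overlapped. The means were 0.13 ± 0.25 (SD, n = 4), -0.74 ± 0.43 (n = 4), -0.66 ± 0.36 (n = 4) and -0.45 ± 0.36 (n = 3) in that order. The p27 knock-out mean was 1.83-fold below wild type (log2 difference -0.87, SE 0.24), and the difference within slides 1 to 4 was -0.61, -1.23, -0.88 and -0.77.

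Part of the Ybx3 pattern lay in the reference channel of 1 array. On wild type 4 the reference stood at 13.87 on the log2 scale and the sample at 14.15, while the reference of the other arrays lay between 14.55 and 14.80. With the sample channel alone, wild type and p27 knock-out overlapped and the p27 difference was -0.20 (SE 0.20), against -0.33 (SE 0.18) for the ratio. The separation of wild type from all knock-out arrays was also lost with median centring and with the scanner software's ratio. The dimmer Ybx3 probe was above background on 0 of 15 arrays, with group means from 0.22 to 0.35, and gives no level.

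Epithelial markers also had lower values in the knock-outs than in wild type. Of 17 epithelial probes of 11 genes, 10 probes of 7 genes passed the filter. Of these 10, 9 had a p27 difference below 0, with a median of -0.38, led by Perp (-1.38), Dsp (-1.04) and Krt7 (-0.93). The keratins Krt18 (-0.19), Krt19 (-0.08) and Krt8 (0.008 and -0.001) differed less. Between double and stathmin knock-out these keratins were higher, by 1.44, 0.65, 0.29 and 0.23, and the other tested genes of the list were lower. The mean log2 ratio of the list ran from 0.09 to 0.62 in wild type, -1.01 to 0.18 in p27 knock-out, -0.86 to -0.17 in stathmin knock-out and -0.60 to -0.38 in double knock-out. Its summed sample signal ran from 13080 to 42570 in wild type, 9588 to 29510 in p27 knock-out, 14270 to 32110 in stathmin knock-out and 13940 to 16730 in double knock-out. Wild type was thus clear of stathmin and double knock-out in the mean ratio and overlapped p27 knock-out. Any part of epithelial cells in the differences of Pbp2, Pde6h and Ybx3 was not tested.

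Apobec1, the editing deaminase, ran the other way. The brighter probe read -0.48, -0.40, -0.88 and -0.70 in wild type and -0.17, 0.73, 0.75 and 0.85 in p27 knock-out. It read -0.13, 0.19, 0.00 and 0.58 in stathmin knock-out and 0.25, -0.44 and 0.21 in double knock-out. Every p27 knock-out and stathmin knock-out array lay above every wild type array, while double knock-out 2 fell within the wild type range. Wild type averaged -0.62 ± 0.22 (SD, n = 4), p27 knock-out 0.54 ± 0.48 (n = 4), stathmin knock-out 0.16 ± 0.31 (n = 4) and double knock-out 0.01 ± 0.39 (n = 3).

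The p27 knock-out mean of the brighter Apobec1 probe was 2.23-fold above wild type (log2 difference 1.16, SE 0.24). Within slides 1 to 4 it was 0.31, 1.14, 1.63 and 1.55. The double knock-out mean differed from stathmin knock-out by -0.15. Without the array labelled stathmin knock-out 4 the latter was -0.01. The dimmer probe read -0.55, -0.36, -0.27 and -0.30 in wild type and -0.37, 0.75, 0.60 and 0.63 in p27 knock-out. There p27 knock-out 1 lay within the wild type range, so the groups overlapped. Over the 15 arrays the 2 Apobec1 probes had r = 0.907.

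Macrophage markers also differed between these cultures, and Apobec1 is known to be expressed in macrophages. Of the 25 tested probes of 16 macrophage marker genes, Csf1r, Cd68, Lyz2 and Ptprc among them, 24 had a p27 difference above 0, with a median of 0.94 against -0.003 over all tested probes. The mean log2 ratio of the list ran from -1.66 to -0.52 in wild type, -2.52 to 1.81 in p27 knock-out, -1.67 to -0.93 in stathmin knock-out and -2.21 to 1.29 in double knock-out. The summed sample signal of its probes ran from 60570 to 384200 in wild type, 58600 to 1553000 in p27 knock-out, 146200 to 263400 in stathmin knock-out and 70070 to 1352000 in double knock-out. The part of these cells in the Apobec1 difference was not tested.

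The receptors Klrd1 and Clec12b were near background. The Klrd1 probe was well above background on 6 of 15 arrays: 3 wild type, 2 stathmin knock-out and 1 double knock-out. It read -0.26, 0.31, 1.50 and 0.99 in wild type, -0.01, -0.89, -0.87 and -0.70 in p27 knock-out, -0.88, -0.41, -0.04 and -0.81 in stathmin knock-out, and -0.08, -0.51 and 0.36 in double knock-out. Wild type 2, 3 and 4 lay above all p27 knock-out arrays and wild type 1 did not. The probe passed the filter through wild type alone. No p27 knock-out array measured Klrd1, so the difference is an approximate bound: wild type, measured on 3 of 4 arrays, was about 2.12-fold or more above p27 knock-out. The wild type mean counts wild type 1, which was not above background, so this is not a strict bound. For stathmin and double knock-out, with 2 of 4 and 1 of 3 arrays measured, no bound is given. A bound sets the mean of the brighter group against, per array, the lowest signal well above background or the probe's own signal, whichever is higher, and is open to dye bias.

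Clec12b was well above background on 3 of 15 arrays, the 3 double knock-outs. It passed the filter through that genotype alone. The double knock-out arrays read 1.44, -0.06 and 0.41. The other 12 arrays lay between -0.88 and -0.15: wild type from -0.68 to -0.35, p27 knock-out from -0.74 to -0.35 and stathmin knock-out from -0.88 to -0.15. The double knock-out was thus above all other arrays, as were 0.0896% of tested probes, a direction that the filter favours for this probe. The values -0.06 and -0.15 are close, and the separation was lost with the sample channel alone. As bounds on group means in the sample channel, the double knock-out was at least 1.9-fold above wild type, 1.91-fold above p27 knock-out and 2.06-fold above stathmin knock-out. On the log2 scale that channel read 8.63, 7.07 and 8.14 on double knock-out 1 to 3. On p27 knock-out 4 it read 7.28, above double knock-out 2. The reference channel was 7.73 on double knock-out 3 and 7.63 on p27 knock-out 4, against 7.04 to 7.29 on the p27-carrying arrays.

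Markers of lymphoid cells gave few measurable values beside these receptors. Of 15 probes of natural killer and T cell markers, 3 passed the filter (Nkg7, Cd3e and Cd3g), with p27 differences of 0.12, -0.10 and 0.00, and the others, among them Ncr1, Gzma and Prf1, did not pass. The summed sample signal of the list ran from 1641 to 2195 in wild type, 2169 to 2538 in p27 knock-out, 2122 to 2864 in stathmin knock-out and 2082 to 2528 in double knock-out. Of the natural killer gene complex, 16 probes of 15 genes passed out of 51 probes of 37 genes. Without Klrd1 and Clec12b, the p27 difference was above 0 for 8 and below 0 for 6, with a median of 0.02. The largest were the receptor genes Klra1 (-2.18) and Klra7 (-2.01) and Clec7a, which encodes dectin-1 (1.10). In all 3, the p27 knock-out arrays overlapped wild type and the double knock-out arrays overlapped stathmin knock-out, while Klra1 was below wild type on all double knock-out arrays (-3.25).

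Relatives of the members elsewhere in the genome, counted without the members, had p27 differences on both sides of 0. Pebp1, the founding member of the Pbp2 family, had 0.07 and 0.05 by its 2 probes. Of 11 probes for 5 other cold-shock-domain genes, 3 lay above 0 and 8 below, with a median of -0.03 against -0.003 for all tested probes, of which 51.1% lay below 0. A Ybx1 probe had -0.33 and was below wild type on all p27 knock-out arrays, as were 1.31% of all tested probes. The other tested Ybx1 probes had -0.11, -0.11 and -0.01, and their p27 knock-out arrays overlapped wild type. Of 4 probes for 3 other phosphodiesterase 6 subunits and partners, 2 lay above 0 and 2 below. Of 11 probes for 5 other APOBEC enzymes and editing cofactors, 5 lay above 0 and 6 below, with Celf2 at -0.49 and -0.47.

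The tested probes of other genes close to Cdkn1b separated the p27 knock-out and the double knock-out from wild type more often than probes elsewhere. Within 5 Mb, 68 probes of 49 genes other than the members were tested. Of these, the arrays of p27 knock-out were clear of wild type for 8 (11.8%), 6 below and 2 above, against 2.23% of all tested probes, 1.21% of the 932 probes on the rest of chromosome 6 and 2.28% on other chromosomes. Double knock-out and wild type did not overlap for 16 (23.5%), 11 below and 5 above, against 6.3% of all. These comparisons share the 4 wild type arrays. The comparison of double with stathmin knock-out, which does not, gave 4 (5.88%) against 4.87% of all, and that of stathmin knock-out with wild type gave 1 (1.47%) against 3%.

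**Figure D3:**
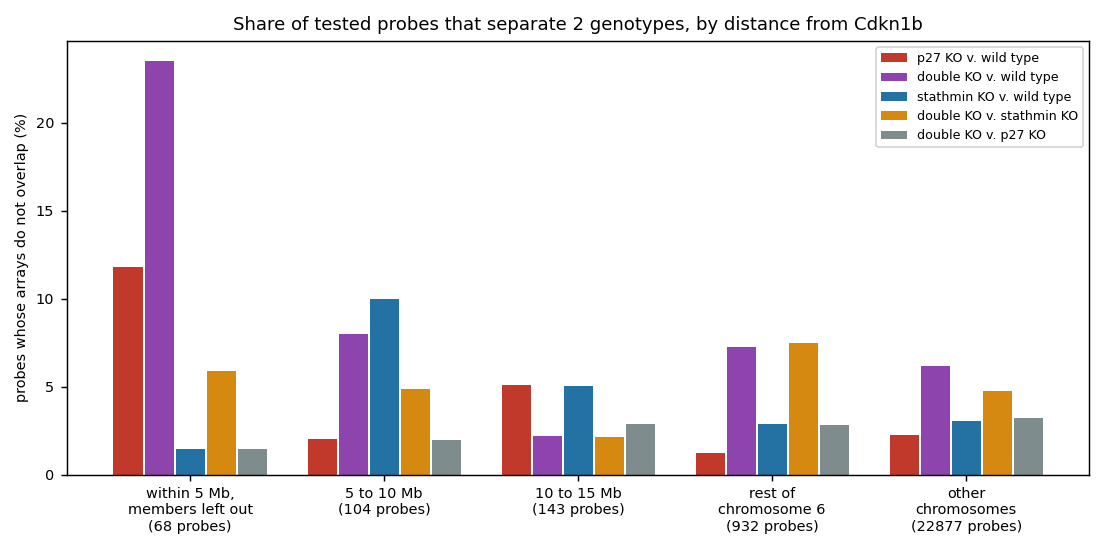
Share of tested probes, in percent (y axis), whose arrays of 2 genotypes do not overlap, in bins of distance from the start of Cdkn1b with the members left out of the nearest bin (x axis). The p27 knock-out against wild type bar is 11.8% within 5 Mb and 2.28% on other chromosomes, and the double knock-out against wild type bar is 23.5% and 6.16%.

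With the members counted in, 72 probes of 52 genes lay within 5 Mb, and the count for double against stathmin knock-out was 4 (5.56%). Without the array labelled stathmin knock-out 4 it was 10 of 72 (13.9%), against 6.88% of all tested probes. Leaving out some other single arrays raised it too. It was 12 (16.7%, against 12.8% of all) without double knock-out 1 and 11 (15.3%, against 15.7%) without stathmin knock-out 1. It was 10 (13.9%, against 13.9%) without double knock-out 2 and 7 (9.72%, against 6.83%) without double knock-out 3. Without the members, the median size of the p27 difference was 0.24 within 5 Mb and 0.0975 over all tested probes. It was below 0 for 64.7% and 51.1%, and passed 1 in size for 4 of the 68 (5.88%) and for 0.647% of all. From 5 to 10 Mb, where Klrd1 and Clec12b lie, the p27 knock-out stood apart from wild type for 2% of probes, the double knock-out for 8% and the stathmin knock-out, which carries p27, for 10%. From 10 to 15 Mb, where Apobec1 lies, the shares were 5.07%, 2.17% and 5.04%. Both of these bins count the member probes in. In the farther bin the brighter Apobec1 probe is among those apart for p27 knock-out, and both Apobec1 probes for stathmin knock-out. In the nearer bin Clec12b is among those apart for double knock-out. Over the whole 15 Mb without the members, p27 knock-out was clear of wild type for 16 of 302 probes and stathmin knock-out for 16 of 303. None of the 319 tested probes within 15 Mb separated all p27-lacking from all p27-carrying arrays. Without p27 knock-out 1, 1 did, a probe of the receptor gene Gprc5a.

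**Figure D4:**
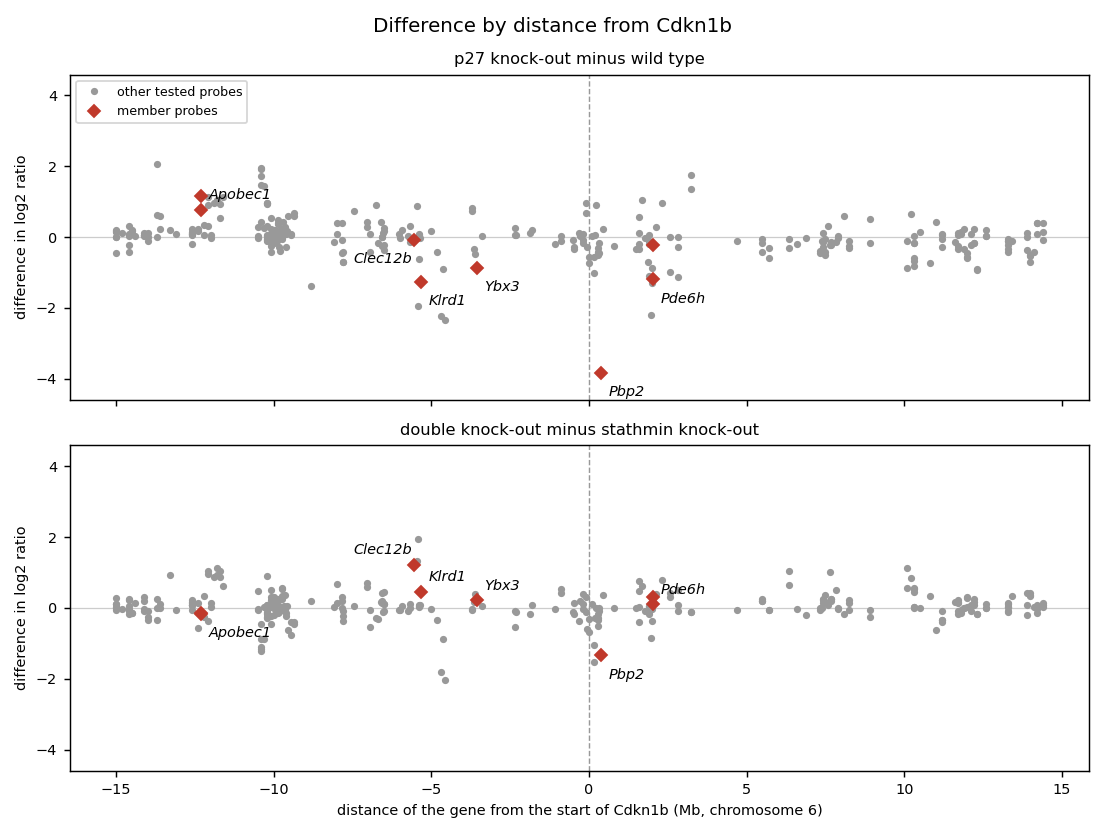
Difference in log2 ratio (y axis) of each tested probe within 15 Mb of Cdkn1b by the distance of its gene from the start of Cdkn1b in Mb (x axis), for p27 knock-out minus wild type above and double knock-out minus stathmin knock-out below, with member probes as red diamonds. Pbp2 is the lowest point above, at -3.82, and stands at -1.34 below. Klrd1 and Clec12b, near background, are drawn at their measured values.

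Among the neighbours, genes on both sides of Pbp2 had differences from wild type of the same sign in both p27-lacking genotypes; they were singled out after their values were seen. The stathmin knock-out mean, with p27 present, lay on the same side of wild type for each: -0.60 for Lockd, -0.23 for H2aj, -0.44 for Strap and 0.42 for Hebp1, with overlapping arrays. Lockd, a non-coding transcript directly downstream of Cdkn1b, differed from wild type by -0.72 in p27 knock-out and -0.91 in double knock-out. H2aj, a histone H2A variant, differed by -1.10 and -0.41, and Strap by -1.12 and -0.52. Hebp1, a haem-binding protein, lay above wild type by 0.91 and 0.42. For these 4 genes both p27-lacking genotypes were clear of the wild type arrays by the probe given, and double knock-out overlapped stathmin knock-out, with differences of -0.31, -0.18, -0.08 and 0.0031 for Lockd, H2aj, Strap and Hebp1. A second probe of Strap (-0.27 and -0.01) and of H2aj (-0.10 and 0.09) overlapped. Gprc5a, whose 2 probes differed between double and stathmin knock-out by -1.06 and -1.51, was clear of stathmin knock-out and of wild type in the double knock-out.

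On the array labelled stathmin knock-out 4, Lockd, Erp27, Strap and H2aj, which lie near Pbp2, were the lowest of their group, as Pbp2 was. They were picked after their values were seen. The share of neighbours or of all tested probes lowest on that array was not counted, so these genes do not characterise the array. It read -0.92 for Lockd against -0.43 to 0.39 on the other 3 stathmin knock-out arrays. It read -1.07 for Erp27, a protein of the endoplasmic reticulum, against -0.58 to 0.91, -0.64 for Strap against -0.01 to 0.63, and -0.32 for H2aj against 0.02 to 0.52. For Hebp1 it read 0.18, the highest of its group, against -0.92 to 0.05.

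Loss of stathmin was not used to choose the members, so it was tested across all probes. The stathmin-lacking arrays differed from the stathmin-carrying ones for 3 probes (0.0108% of 27669), those of Stmn1, Rpl11 and Gadd45gip1 (limma, Benjamini-Hochberg adjusted p under 0.05), and for 0 of the 8 member probes. The adjusted p was 0.99991 for each of the 8. Klrd1 and Clec12b passed the filter through 1 genotype alone and are left out of the counts that follow. Of the other 6 member probes, 0 had an unadjusted p under 0.05, against 1.24% of all tested probes. For Pbp2 the stathmin difference was -0.41 with a 95% confidence interval from -1.48 to 0.65.

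Among p27-carrying fibroblasts alone, 4 members had group means away from wild type in stathmin knock-out too, short of the adjusted threshold. Stathmin knock-out minus wild type was -1.66 (SE 0.67) for Pbp2, -0.93 (SE 0.27) for the brighter Pde6h probe, -0.80 (SE 0.24) for the brighter Ybx3 probe and 0.78 (SE 0.24) for the brighter Apobec1 probe. None passed (limma adjusted p = 0.916 each, 0.00723% of all tested probes called), while 4 of the 6 probes had an unadjusted p under 0.05, against 4.84% of all. The wild type arrays of this test also served to choose the members, so it is not independent of the choice. By array, the brighter probes of Pde6h and Ybx3 were below wild type on all 4 stathmin knock-out arrays (1.67% of all tested probes) and both Apobec1 probes were above (1.34%). The brighter Pde6h probe lost this with median centring, the dimmer Apobec1 probe with the sample channel alone, and the brighter Ybx3 probe with either of these and with the scanner software's ratio. Without the array labelled stathmin knock-out 4, Pbp2 differed by -1.01. With p27 absent, double minus p27 knock-out gave 0.83 (SE 0.72) for Pbp2, with an adjusted p of 0.999926 (limma, 0.00361% called). Of the 6 probes, 0 had an unadjusted p under 0.05 there, against 2.89% of all.

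The interaction asks whether the p27 difference of a gene differed with and without stathmin. No probe of 27669 passed (limma adjusted p under 0.05, 0%), and 2019 (7.3%) had an unadjusted p under 0.05. Of the 6 member probes, 5 were under 0.05 unadjusted, all but the dimmer Pde6h probe, with an adjusted p of 0.682 each. The p27 difference was more positive without stathmin than with it, by 2.49 for Pbp2 (95% confidence interval 0.36 to 4.61), 1.49 for the brighter Pde6h probe and 1.08 for the brighter Ybx3 probe. For the brighter Apobec1 probe it was more negative, by -1.31. The comparison of p27 knock-out with wild type that helped to choose the members is 1 arm of the interaction, so these values are not independent of the choice.

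Across the 15 arrays the members lying lower in p27 knock-out had positive correlations by the probes given here. The correlation of Pbp2 was 0.729 with the brighter Ybx3 probe and 0.651 with the brighter Pde6h probe, and that of the brighter Pde6h probe with Klrd1 was 0.777. The brighter Apobec1 probe had -0.738 with Pbp2 and -0.751 with the brighter Pde6h probe. These points share arrays and one reference and include the genotype differences. The members were chosen by their p27 difference in these arrays, so the signs follow in part from the choice. The Klrd1 probe was well above background on only 6 of the 15 arrays. The probes of other genes most like each member by Pearson correlation over the 15 arrays were Fgf8 (0.858), Coro2a (0.834) and an unnamed transcript listed as BG294955 (0.826) for Pbp2, and Mrtfb (0.874), Igf1r (0.866) and Ergic1 (0.844) for Pde6h. They were Polr3f (0.926), Suv39h2 (0.922) and Adra2a (0.901) for Ybx3, and Lhfpl2 (0.887) and Cyp2j9 (0.846) for Apobec1. For the receptors near background they were LOC545547 (0.952), Atp13a3 (0.923) and Tnni3k (0.922) for Klrd1, and Slc30a5 (0.853), Ush1g (0.848) and Rab3c (0.840) for Clec12b. None of the genes named here with a known position lies on chromosome 6.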

How the data were processed

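Total RNA of 15 fibroblast cultures was hybridised to 2-colour Agilent arrays. The deposited files give, per the file headers, spot intensity for both channels and a log10 ratio from Feature Extraction 9.1.3.1. The deposited value table holds log2 values: its slope on the scanner ratio in log2 was 0.919 to 0.979, so red over green, with array medians from 0.0039 to 0.0522 and its exact centring unknown. Mean signals were background-corrected (normexp, offset 50) and loess-normalized within arrays in limma 3.58.1 (R 4.3.3), control spots at weight 0 and outlier spots left out; channel values add Aquantile scaling. Repeat spots were averaged. Tested probes had a Cy5 signal well above background on 3 or more arrays of any genotype. A mean per genotype was fitted over 15 arrays (11 residual degrees of freedom), with Benjamini-Hochberg adjustment over all tested probes. The number of arrays limits the precision. Names came from RefSeq (GRCm38.p6) by accession for 18206 of the tested probes, symbol for 4017 and older symbol for 1905; 3572 kept the file's name. The build of the array design is not given in the sources used here.

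Members and lists were chosen with earlier results of these data known. Named were all probes of the members, Cdkn1b and Stmn1; genes within 15 Mb whose p27-lacking and p27-carrying arrays do not overlap; the 3 probes most correlated with each member, of which 1 is not reported here; and, of each list, called genes or up to 3 with the largest p27 difference. Neighbours outside this rule are marked as chosen after their values were seen. Ddx3y, Xist and the keratins Krt8, Krt18 and Krt19 were also named outside it. The fit was tested on simulated data. Alternatives changed background correction, normalization, the filter, the values used, blocks, weights and the arrays included. Germ cell (7 of 14 probes tested, median p27 difference -0.02) and photoreceptor markers (3 of 12, -0.05) were also listed.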

Additional observations from a re-analysis of the deposited data

Results flagged for a closer look

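In 27 groups of 4 arrays (the member probes in wild type, p27 knock-out and stathmin knock-out), 1 array was set off from the other 3 by more than Dixon's 95% critical value for the gap over the group's range in 3 cases. Chance does this in about 1 group in 20. The brighter Ybx3 probe was -1.37 on p27 knock-out 2, against -0.60 to -0.48 on the others. The brighter Apobec1 probe was -0.17 on p27 knock-out 1, against 0.73 to 0.85, and the dimmer Apobec1 probe was -0.37 on the same array, against 0.60 to 0.75.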

How the results depend on the processing

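Under all alternatives run, 0 member probes separated the p27-lacking from the p27-carrying arrays (leave-one-out range 0 to 0). The count within 15 Mb was 0, with a range of 0 to 1 when single arrays were left out (1 without p27 knock-out 1). Of the 40 member differences, 6 turned sign under at least 1 setting (14 of 1121 settings in all), each no larger than 0.15 in size. The p27 difference of the dimmer Pde6h probe ran to 0.0070, its double minus stathmin knock-out difference from -0.12 to 0.21 and that of the brighter Apobec1 probe from -0.28 to 0.07, the last without double knock-out 2. The p27 knock-out minus wild type difference of Clec12b, with neither group above background, also turned. Probes called for stathmin numbered 3, and 5 with the deposited table, 5 with the scanner software's ratio, 1 with the sample channel alone, 8 with array weights and 2 to 5 when single arrays were left out (5 without stathmin knock-out 1). For the interaction they numbered 0, and 2 with array weights and 0 to 1 leaving arrays out (1 without stathmin knock-out 1 or 4). Replicate numbers do not pair the samples: 12 of 21 same-number pairs had a correlation over 0.1, and 5 of 15 arrays were closest to their own number. With the replicate block the counts were 3 for stathmin and 0 for the interaction. Within 5 Mb, leaving out single arrays gave 11 to 19 probes for p27 knock-out against wild type (19, 26.4%, without wild type 1 or p27 knock-out 1, against 5.01% and 10.4% of all), 19 to 29 for double knock-out against wild type (29 without double knock-out 2), 4 to 12 for double against stathmin knock-out (12 without double knock-out 1, against 12.8% of all) and 3 to 12 for stathmin knock-out against wild type (12 without stathmin knock-out 1). Fewer arrays separate more easily by construction. Median centring gave 11 (15.3%, against 7.76% of all) for double knock-out against wild type, and averaging wild type 3 and 4 gave 6 for stathmin knock-out against wild type. These counts were chosen as results after seeing the data. The stathmin difference changed sign for the dimmer Pde6h probe (0.0218 without p27 knock-out 1, 0.0101 without wild type 2, 0.0185 without double knock-out 2; range -0.109 to 0.0218) and the dimmer Apobec1 probe (0.00052 without p27 knock-out 2, 0.0143 without double knock-out 2; range -0.186 to 0.0143). The scanner software's ratio gave -1.76 for p27 knock-out minus wild type of the brighter Pde6h probe. With array weights the double minus stathmin knock-out difference of Pbp2 was -0.87. The cause of these shifts was not tested. Blocks and weights change no array value, so they were not run for the overlap counts. Signal over background limits Klrd1, Clec12b and the dimmer Ybx3 probe.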

Other observations

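Proximal to Cdkn1b, in the stretch that holds Apobec1, myeloid receptor genes had larger p27 differences than any member but Pbp2; they were picked after their values were seen. Clec4a2 had 1.09 and 0.95 by its 2 probes, C3ar1 1.05 and 0.98, and Clec4d 0.99. For each of these probes p27 knock-out overlapped wild type and double knock-out overlapped stathmin knock-out. Distal to Cdkn1b, the matrix Gla protein gene Mgp had -1.52 and also overlapped in both comparisons.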
